A study of Homo sapiens with 13 samples.

Results

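The genes described here carry the name ZNF followed by a number, the registry name given to human genes that encode proteins with zinc fingers. They were measured in MCF10A cells, a spontaneously immortalized, non-tumorigenic human mammary epithelial cell line, on 13 Affymetrix arrays. A gene was included when its platform symbol was ZNF plus digits and its brightest probe set had a mean signal of 100 or more over the 13 arrays. That rule kept 38 of 212 ZNF-named genes on the array, and 38 of 11963 named genes in all. The remaining 174 ZNF-named genes had lower means. The genes were chosen by mean signal, so their brightness is a description and not a result.

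Before every array the cells had been deprived of serum for 24 h. 1 array came from cells that were then left unstimulated, 6 from cells given epidermal growth factor (EGF), and 6 from cells given the mixture that the submitters call serum, which holds horse serum, insulin, cholera toxin and hydrocortisone. The times were 20, 40, 60, 120, 240 and 480 min after stimulation with either agent. Each condition is a single array, so no condition was replicated and arrays of neighbouring times stood in for replicates. The p-values below therefore measure the spread between these arrays and not between independent cultures. 1 EGF array is titled 20 min while its description says 40 min, and the title was used. RNA came from whole cultures, in which fewer cells of a type and less RNA per cell cannot be told apart.

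Zinc fingers of the C2H2 type are short loops held by a zinc ion, and a row of them reads a stretch of DNA. Many human C2H2 proteins add a KRAB domain, which recruits the corepressor TRIM28 and through it the histone methyltransferase SETDB1 and heterochromatin proteins, a system best known for silencing transposable elements. KRAB zinc finger genes lie in large clusters of related copies, above all on chromosome 19. The ZNF name does not guarantee a transcription factor. ZNF207 is a spindle and BUB3-binding protein, ZNF593 acts in maturation of the large ribosomal subunit, ZNF330 is a nucleolar protein, ZNF638 and ZNF106 bind RNA or nuclear structures, and ZNF185 is a LIM-domain protein of the actin cytoskeleton.

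Chromosome 19 held 11 of the 38 genes, or 28.9%, against 495 of 7729 tested genes with a known position, or 6.4%. In gene order, 1 protein-coding gene lay between ZNF83 and ZNF611, 9 lay between ZNF611 and ZNF160, and 11 lay between ZNF587 and ZNF544. Related copies share sequence, and this affects how a probe set can be read. In Affymetrix names the ending _x_at marks a set with probes that also match other transcripts. Sets of this kind measured 7 of the 38 genes, namely ZNF721, ZNF638, ZNF160, ZNF587, ZNF430, ZNF611 and ZNF44. For these 7, signal from the named gene and from related copies cannot be told apart. A further 13 were measured by _s_at sets, which match several transcripts, often of 1 gene, and 18 by plain _at sets.

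RefSeq promoter sequences (GRCh38.p14, up to the first listed start) were available for 34 of the 38 genes. The last 100 bases before the start are printed for 6 genes on which the results turn, 5′ to 3′ on the gene's strand. The first 3 are chromosome 19 genes whose signal was lower on every stimulated array than on the unstimulated one. ZNF638 had the lowest late-minus-early difference, and ZNF24 and ZNF217 had opposite differences between EGF and serum. They lie at chr19:53103423-53103522 (minus strand), chr19:52735045-52735144 (minus), chr19:57849759-57849858 (plus), chr2:71331682-71331781 (plus), chr18:35344421-35344520 (minus) and chr20:53593840-53593939 (minus). Capitals mark matches, on either strand, to any of the 9 motifs searched.
ZNF160: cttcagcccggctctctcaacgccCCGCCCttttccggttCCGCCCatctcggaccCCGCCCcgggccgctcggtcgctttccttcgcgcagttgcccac
ZNF611: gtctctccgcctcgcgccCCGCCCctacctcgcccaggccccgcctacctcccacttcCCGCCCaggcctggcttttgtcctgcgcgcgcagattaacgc
ZNF587: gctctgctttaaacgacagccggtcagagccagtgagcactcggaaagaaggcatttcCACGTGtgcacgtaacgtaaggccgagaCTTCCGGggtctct
ZNF638: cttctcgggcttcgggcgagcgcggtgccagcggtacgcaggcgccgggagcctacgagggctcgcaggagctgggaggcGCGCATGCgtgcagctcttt
ZNF24: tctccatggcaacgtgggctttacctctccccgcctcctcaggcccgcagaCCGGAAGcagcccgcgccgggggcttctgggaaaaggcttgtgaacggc
ZNF217: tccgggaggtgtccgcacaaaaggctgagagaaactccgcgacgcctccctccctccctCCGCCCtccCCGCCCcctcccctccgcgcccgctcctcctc

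ZNF160, ZNF611 and ZNF217 carry the SP1 letters, GGGCGG or the reverse complement, in this stretch. ZNF587 and ZNF24 carry the ETS letters, CCGGAAG or the reverse complement, which are bound by the family of factors that includes targets of ERK signalling. ZNF638 carries the NRF1 letters, GCATGCGC, on the opposite strand, and ZNF587 also carries the E-box CACGTG. Over the 250 bases before the start, the ETS letters occurred in 12 of 34 promoters of these genes, or 35.3%, against 16.6% of 6457 tested genes with a sequence and 8.82% of all 27305 genes in the table. The CRE letters TGACGTCA, the binding site of CREB, occurred in 4 of 34 (ZNF266, ZNF330, ZNF335 and ZNF593), or 11.8%, against 3.17% of tested genes. GGGCGG occurred in 58.8% against 68.4%, CCAAT in 32.4% against 36.3%, CACGTG in 11.8% against 9.26%, and GCATGCGC in 8.82% against 4.86%. The AP-1 letters TGANTCA occurred in 1 promoter, that of ZNF83, and the YY1 letters GATGGCGG in 1, that of ZNF318, or 2.94% each against 3.83% and 1.66% of tested genes. The EGR letters GCGTGGGCG occurred in none of the 34 and in 1.3% of tested genes. All 9 motifs were searched on both strands, with overlaps allowed. The median GC content of these windows was 62.4% in the ZNF-named genes and 65.2% in tested genes. These counts describe letters in a window, and binding was not measured.

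The cells carried the markers of their label and responded to both agents. All 6 measured epithelial markers had a median signal of 100 or more. Of the markers of other cell types, 1 of 6 fibroblast genes (DCN) and 1 of 3 immune genes (CD14) reached that level, and 0 of 3 endothelial and 0 of 3 adipocyte genes did. EGR1, an immediate early transcription factor, had a signal of 150.7 on the unstimulated array, 984.6 at 40 min of EGF and 685.7 at 60 min of serum. FOS had 33.1, 500.9 at 40 min of EGF and 932.4 at 40 min of serum. Array medians lay between 36.2 and 45.9 signal units as deposited. The unstimulated array had 43.9 and the 20 min serum array 45.9, while all others had 36.2 to 40.

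The signals of the 38 genes, as deposited, ran from a mean of 1082 units for ZNF207 down to 100.5 for ZNF124. Signals of different probe sets are not levels on a common scale, so this order ranks probe sets. The 3 genes just inside the minimum were ZNF672 at 101.7, ZNF44 at 101.6 and ZNF124 at 100.5. The 3 just outside were ZNF274 at 95.9, ZNF200 at 95.1 and ZNF212 at 94.8. With the mean taken over the 12 stimulated arrays alone, ZNF44 at 92.5 and ZNF124 at 96.4 would have been left out. All 38 genes passed the filter on dim genes that was applied before testing, as did 104 of the other 174 ZNF-named genes. From here on, a difference is one of log2(signal + 6) after quantile normalization, and a value as deposited is called a signal.

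Over the 13 arrays these genes varied about as much as other genes. The range from the lowest to the highest array had a median of 0.81 on the log2 scale over the 38 genes, and 11 of 38, or 28.9%, spanned more than 2-fold. Over all 7731 tested genes the median was 0.83, and 35.4% spanned more than 2-fold. ZNF430, a KRAB zinc finger gene, varied least, with a range of 0.37 and signals from 216.2 to 282.8. ZNF44 varied most, with a range of 1.78 and signals from 53.9 to 210.9.

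**Figure D1:**
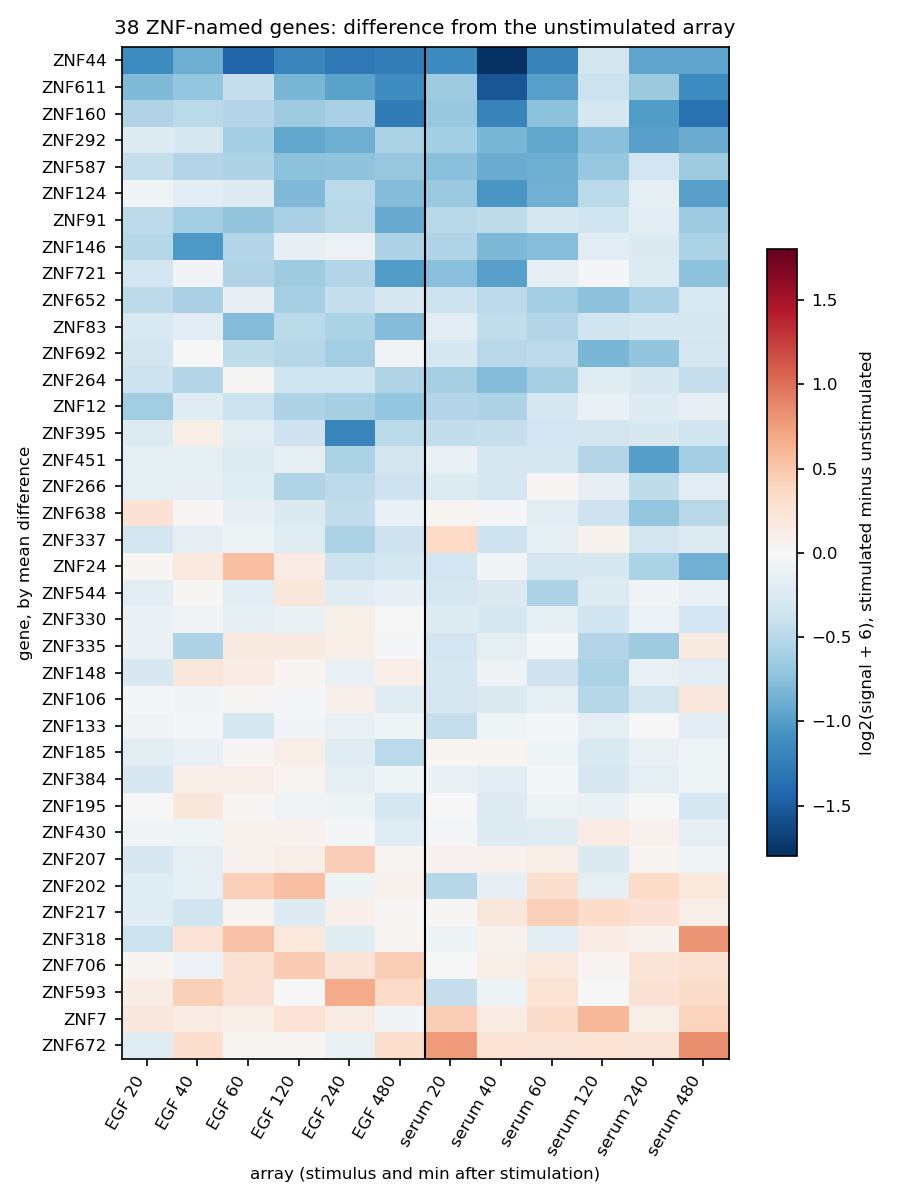
Difference of each stimulated array from the unstimulated array, in log2(signal + 6), for the 38 ZNF-named genes (rows, by mean difference) on the 6 EGF and 6 serum arrays (columns, in min). Blue cells fill the upper rows, where 14 genes lay below the unstimulated array on all 12 arrays, and no row is red throughout.

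The question of the time courses is how expression differed from the unstimulated state after either agent. Signals of many ZNF-named genes were lower on the stimulated arrays than on the unstimulated array, at every time and with both agents. On each of the 12 stimulated arrays the median difference of the 38 genes was negative, from -0.14 at 40 min of EGF to -0.32 at 20 min of serum. The median of all tested genes on the same arrays lay between -0.0067 and 0.038. Between 21 (60 min of EGF) and 32 (20 min of EGF) of the 38 genes were below the unstimulated array. None was 2-fold higher on any array. Of all 7731 tested genes only 79 to 185 were, so a count of 0 in 38 is near that share. At most 4 were 2-fold lower, at 40 min of serum, where 127 of all tested genes were. In either direction that array held 10.5% of the 38 against 3.36% of all tested genes. On the other arrays the shares were 0% to 7.89% against 2.04% to 5.07%. No gene of the 38 passed the threshold of an adjusted p of 0.05, and each of these differences is taken from the same single unstimulated array. ZNF44 and ZNF124, which passed the signal minimum only through that array, are among the 38.

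**Figure D2:**
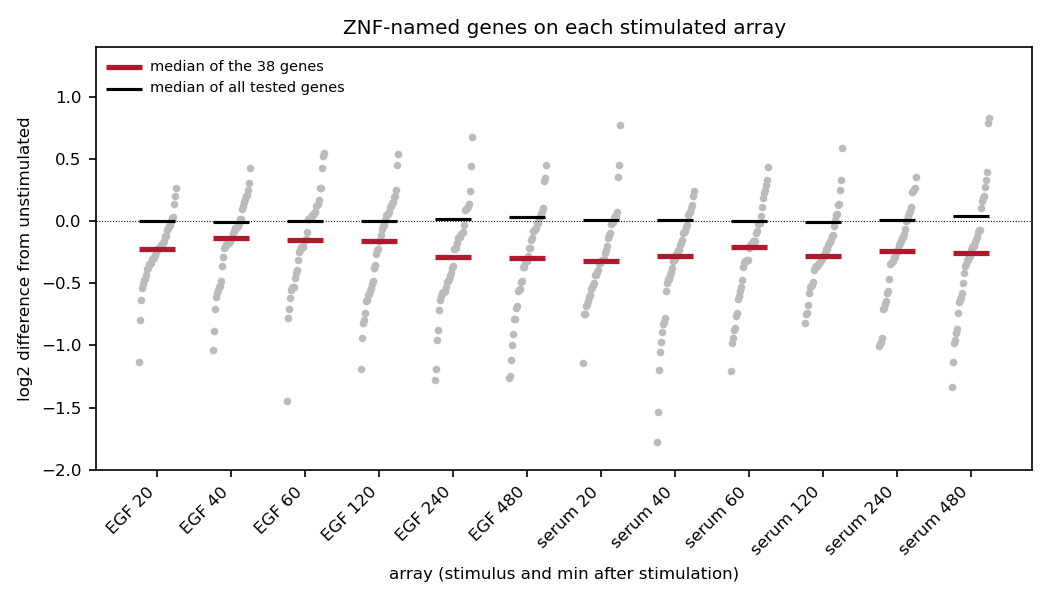
Difference from the unstimulated array, in log2(signal + 6), for each of the 38 ZNF-named genes (grey points) on each of 12 stimulated arrays, with the median of the 38 (red bar) and of all tested genes (black bar). The red bars lie between -0.32 and -0.14, and the black bars lie near 0 on every array.

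Of the 38 genes, 14 lay below the unstimulated array on all 12 stimulated arrays, or 36.8%, against 7.57% of all tested genes. In the other direction 0 of 38 lay above it on all 12, against 7.55%. Among the 4705 tested genes that also had a mean signal of 100 or more, 8.16% lay below on all 12. The 104 tested ZNF-named genes with a lower mean held 7 such genes, or 6.73%, and 4, or 3.85%, above. Because the unstimulated array entered the mean that chose the genes, the count was repeated over the 36 genes that keep a mean of 100 on the stimulated arrays alone, where it was 12, or 33.3%. All 12 comparisons share the 1 unstimulated array, so they are not 12 separate observations.

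Probe sets and chromosome 19 moved with this pattern. Of the 7 genes measured by _x_at sets 5 lay below on every array (71.4%), and of the other 31 genes 9 did (29%). Over all 598 tested genes with an _x_at set the share was 10.4%. Of the 11 genes on chromosome 19 the count was 7 (63.6%), of the 27 elsewhere it was 7 (25.9%), and of 441 tested chromosome 19 genes without a ZNF name it was 20 (4.54%). Without ZNF44 and ZNF124, which passed the signal minimum only through the unstimulated array, the counts were 4 of 6 (66.7%) and 8 of 30 (26.7%) by probe set, and 6 of 10 (60%) and 6 of 26 (23.1%) by chromosome. The splits by probe set and by chromosome overlap and are not separate observations. ZNF160, ZNF587, ZNF611 and ZNF44, all below on every array, and ZNF430, which was not, are _x_at genes of chromosome 19. The part of cross-matching probes in the pattern was not tested.

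On chromosome 19 the 7 genes were ZNF160, ZNF611, ZNF44, ZNF587, ZNF91, ZNF83 and ZNF146. ZNF160 had a signal of 683.0 without stimulation. With EGF it was 472.0, 491.0, 475.6, 448.5, 468.6 and 292.8 at 20 to 480 min, and with serum 420.5, 298.4, 413.8, 556.2, 341.7 and 270.4. The highest stimulated array thus stayed under the unstimulated one, and both arrays at 480 min were the lowest of their courses. At 480 min the difference was -1.30 (SE 0.28, 2.46-fold lower), with a limma adjusted p of 0.21. ZNF611, which like ZNF160 encodes a KRAB protein, had 321.2 without stimulation and between 103.8 (40 min of serum) and 237.1 (60 min of EGF) with it. Its difference at 480 min was -1.12 (SE 0.37, limma adjusted p = 0.34). Both are _x_at sets.

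ZNF44 had the lowest difference of the 38 genes when the 12 stimulated arrays were averaged (-1.13), though not at 120 or 480 min. It passed the signal minimum only through the unstimulated array, with a mean of 92.5 on the others, so a higher unstimulated signal follows in part from how the genes were chosen. Its signal was 210.9 without stimulation, then 89.7, 107.4, 71.6, 85.8, 80.2 and 82.6 with EGF and 95.5, 53.9, 84.6, 159.9, 99.8 and 98.7 with serum. The serum array at 120 min stood apart from the others, at 159.9, and was still under the unstimulated array. At 60 min the difference was -1.33 (SE 0.42, limma adjusted p = 0.55) and at 480 min -1.10 (SE 0.42, adjusted p = 0.37). ZNF587 had 420.2 without stimulation against 221.2 to 328.8 with it (median 261.4), and -0.71 at 60 min (SE 0.25, limma adjusted p = 0.58). ZNF91, a KRAB protein known for restraining SVA retrotransposons, is measured by a plain _at set. Its signal was 253.4 without stimulation, and with it ran from 130.6 to 212.5 with a median of 174.2. ZNF83, in the same cluster as ZNF611, had 210.6 against 116.8 to 179.7.

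Outside chromosome 19 the same ordering held for 7 genes. ZNF292, which encodes a very large zinc finger protein, had 603.8 without stimulation, then 515.6, 491.7, 392.1, 314.1, 337.6 and 421.0 with EGF and 390.1, 336.0, 310.9, 357.6, 304.5 and 325.0 with serum. Its first 2 EGF arrays lay nearest the unstimulated one and above every serum array. At 60 min the difference was -0.78 (SE 0.22, limma adjusted p = 0.48). ZNF124, which also passed the minimum only through the unstimulated array, had 149.6 without stimulation against 64.4 to 134.0. ZNF721 had 799.1 against 414.7 to 798.1, so that its 120 min serum array lay within 1 signal unit of the unstimulated one. ZNF692, a repressor linked to glucose metabolism, had 406.1 against 224.4 to 395.7. ZNF12, ZNF652 and ZNF451 had 376.1, 162.5 and 185.3 without stimulation against highest stimulated signals of 344.3, 140.0 and 166.5. ZNF146, a chromosome 19 gene whose protein consists of little more than zinc fingers, completes the 7 of that chromosome and is described with the time courses below.

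Higher signals after stimulation were few and small. At 60 min the 3 largest positive differences were those of ZNF202, a SCAN and KRAB protein that represses lipid metabolism genes (0.36, SE 0.30), ZNF593 (0.26, SE 0.23) and ZNF217 (0.24, SE 0.20), with limma adjusted p of 0.83, 0.85 and 0.82. For ZNF593 the 60 min arrays themselves lay close, at 0.27 with EGF and 0.25 with serum above the unstimulated array. The fit holds a stimulus term shared by all times. Through that term its value was 0.12 without the serum array and 0.39 without the EGF array of that time. At 480 min they were ZNF672 (0.58, SE 0.28), ZNF318 (0.41, SE 0.37) and ZNF706 (0.36, SE 0.19), with adjusted p of 0.48, 0.71 and 0.52. The value of ZNF318 rested on the serum array. Its signal there was 214.3, against 127.0 on the EGF array and 129.6 without stimulation, and the difference was -0.0047 without that array and 0.83 without the EGF array.

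By time, 0 of 38 genes were called at any of the 6 times. The share of all tested genes called by the same fit was 0.0259% at 20 min, 0.0776% at 40 min, 0.0776% at 60 min, 0.0259% at 120 min, and 0% at both 240 and 480 min, so the design made few calls of any gene here. At an unadjusted p under 0.05, the counts of ZNF-named genes were 4 (10.5%), 9 (23.7%), 7 (18.4%), 5 (13.2%), 7 (18.4%) and 11 (28.9%) of 38, beside 5.91%, 7.08%, 7.42%, 9.24%, 9.73% and 11.7% of all tested genes. The median differences of the 38 were -0.24, -0.18, -0.16, -0.25, -0.29 and -0.28, with 33, 31, 27, 30, 29 and 30 genes below 0, while the median of all genes stayed between -0.0085 and 0.029. The 6 times share 1 unstimulated array, and the 38 include ZNF44 and ZNF124, which passed the signal minimum only through it.

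A fit of the mean of the 12 stimulated arrays against the unstimulated array, with a term for the stimulus and chosen after seeing the data, gave a median of -0.19 over the 38 genes, with 30 negative and a range of -1.13 to 0.25. The strongest by p was ZNF587 (-0.65, SE 0.19, limma adjusted p = 0.47), followed by ZNF44 (-1.13, SE 0.34, adjusted p = 0.56). ZNF292, ZNF91, ZNF611 and ZNF160 had differences of -0.71, -0.52, -0.85 and -0.78. It called 0 of 38 genes and 0% of all tested genes. At an unadjusted p under 0.05 it held 7 of 38 (18.4%) against 5.78% of all genes. ZNF44, which is among these 7, passed the signal minimum only through the unstimulated array, as did ZNF124. Over the 36 genes without them the median was -0.18, with 28 negative. The count by unadjusted p was not repeated without them.

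The second question is how the later arrays (120, 240 and 480 min) differed from the early ones (20, 40 and 60 min). ZNF-named genes had no common direction between the phases. The median late-minus-early difference was -0.00074 over the 38 genes, with 18 positive and 20 negative, against 0.017 over all genes, and the values ran from -0.39 to 0.39. No gene of the 38 was called, against 3.47% of all tested genes. At an unadjusted p under 0.05 the count was 7 of 38, or 18.4%, against 23.9%. None had its 6 late arrays all above its 6 early ones (1.16% of all genes) or all below (1.63%).

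**Figure D3:**
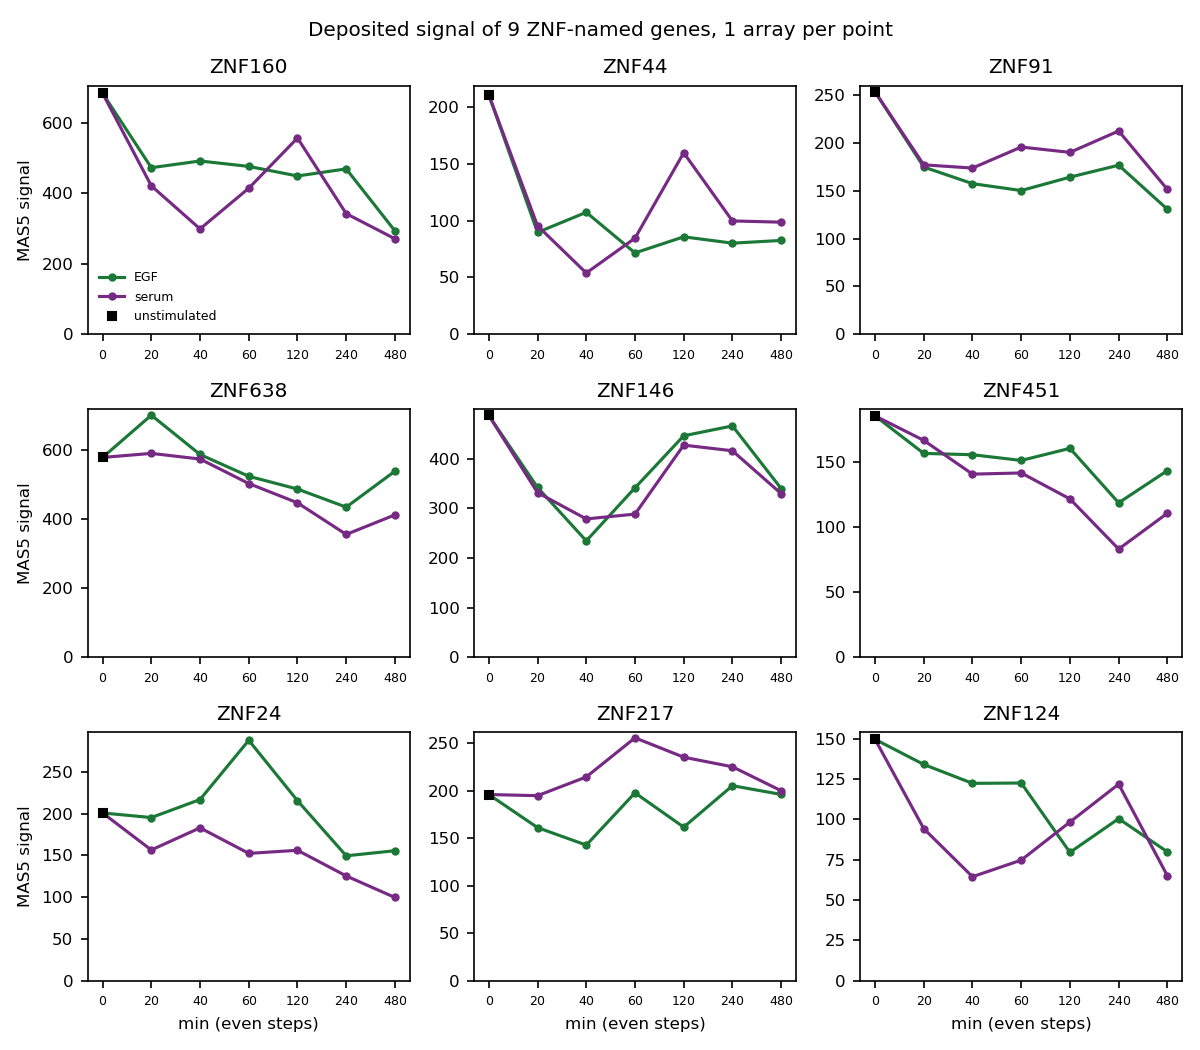
Deposited MAS5 signal of 9 ZNF-named genes against time in min (even steps, linear axes from 0), with EGF in green, serum in purple and the unstimulated array as a black square, 1 array per point. The signal of ZNF160, ZNF44, ZNF91, ZNF146, ZNF451 and ZNF124 is highest on the unstimulated array, and ZNF24 is higher with EGF and ZNF217 higher with serum at every time.

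ZNF638, an RNA- and DNA-binding nuclear matrix protein that acts in silencing of unintegrated retroviral DNA, had the lowest late signal relative to early. It had 577.2 without stimulation, then 699.2, 585.7, 522.8, 485.9, 433.7 and 537.6 with EGF and 588.9, 572.6, 501.9, 446.2, 354.9 and 411.4 with serum. In serum the 3 late arrays lay under the 3 early ones, and with EGF the 480 min array overlapped the early range. The late-minus-early difference was -0.39 (SE 0.098, 1.31-fold lower), with a limma adjusted p of 0.053, just over the threshold. It passed in 6 of 21 alternative fits. Among them was 1 with each time as its own level (adjusted p = 0.049, where 1.91% of all genes were called). It also passed without the 60 min EGF array (0.048) and without the 120 min serum array (0.041). With 1 array left out, the number of all genes called ran from 56 to 437, against 268 in the main fit. Another of the 6 changed the variance model and called 8.47% of all genes, against 3.47% in the main fit. A second probe set of the gene, also _x_at, gave -0.37.

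ZNF146 moved the other way after a low early phase. Its signal was 487.3 without stimulation, 342.3, 234.7, 341.6, 446.4, 466.3 and 340.1 with EGF, and 331.9, 278.9, 288.6, 427.6, 416.2 and 329.8 with serum. In both courses the 40 min array was the lowest, the 120 and 240 min arrays lay nearer the unstimulated one, and the 480 min arrays were back within the early range. The late-minus-early difference was 0.39 (SE 0.13, limma adjusted p = 0.097). ZNF44 at 0.28 (SE 0.15) and ZNF202 at 0.21 (SE 0.18) were the next largest, with adjusted p of 0.30 and 0.52. The value of ZNF44 turned to -0.048 when its probe sets were averaged, the other of which was dim (mean signal 8.9). It was 0.17 without the 40 or the 120 min serum array. That of ZNF202 lay between 0.11 (without the 20 min serum array, or the 120 min EGF array) and 0.31 (without either 60 min array).

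On the low side ZNF24 and ZNF451 followed ZNF638. ZNF24, a SCAN-domain factor known to repress VEGFA, had a difference of -0.39 (SE 0.14, limma adjusted p = 0.12), but its second, equally bright probe set gave -0.065 and averaging the sets gave -0.16. ZNF451, a SUMO ligase, had 185.3 without stimulation, 156.5, 155.5, 151.1, 160.4, 118.6 and 143.3 with EGF, and 166.5, 140.6, 141.5, 121.6, 83.1 and 110.6 with serum. Its lowest array in each course was the one at 240 min. The difference was -0.31 (SE 0.10, limma adjusted p = 0.10), and the second bright probe set gave -0.048, so the sets of neither gene show the same size.

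Within EGF the 38 genes had a median late-minus-early difference of -0.090, with 11 positive and 27 negative, against 0.021 over all genes. The count called was 0, beside 0.246% of all genes. At an unadjusted p under 0.05 it was 9 of 38 (23.7%) against 14.5%. ZNF395, a factor induced by hypoxia in other cells, had 245.6 without stimulation and 197.9, 253.0, 208.2, 185.2, 101.6 and 172.8 with EGF, where the 240 min array stood lowest. The difference was -0.56 (SE 0.19, limma adjusted p = 0.22), while its serum signals stayed between 174.3 and 192.1. Without the 240 min EGF array it was -0.31. ZNF124 at -0.51 and ZNF24 at -0.44 came next, though the second bright set of ZNF24 gave 0.012, averaging its sets gave -0.15 and leaving out the 60 min EGF array gave -0.29. ZNF146 (0.42, and 0.25 without the 40 min EGF array), ZNF207 (0.34, and 0.22 without the 240 min EGF array) and ZNF706 (0.31) were the largest positive ones. The limma adjusted p lay between 0.25 and 0.34 for these 5.

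In serum the median was 0.030, with 22 positive and 16 negative, against 0.0068 over all genes. Again 0 of 38 were called, beside 1.33% of all genes, and 6 of 38 (15.8%) had an unadjusted p under 0.05 against 20.2%. ZNF638 (-0.46, SE 0.14) and ZNF451 (-0.46, SE 0.14) had the largest negative differences, with limma adjusted p of 0.11 each. The second bright set of ZNF451 gave 0.073, of the opposite sign, and averaging its sets gave -0.19. ZNF24 had -0.34, with -0.19 without the 480 min serum array and -0.17 with its sets averaged. ZNF44 had the largest positive one, 0.63 (SE 0.22, adjusted p = 0.14). It was 0.063 when the gene's dim other probe set was averaged in. ZNF318, which acts in the processing of immunoglobulin transcripts, had 0.40, but 0.063 with its probe sets averaged and 0.17 without the 480 min serum array. ZNF146 had 0.36.

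The test of whether the late-minus-early difference itself differed between EGF and serum called 0 of 38 genes, beside 0.0259% of all genes. At an unadjusted p under 0.05 the count was 6 of 38 (15.8%) against 11.2%. The median of the 38 was -0.096 against 0.014 over all genes. ZNF124, a KRAB zinc finger gene, had the largest value, -0.82 (SE 0.19, limma adjusted p = 0.25). Its signals with EGF were 134.0, 122.3 and 122.5 early and 79.5, 100.4 and 79.8 late, with no overlap. With serum they were 94.2, 64.4 and 74.7 early and 98.3, 121.8 and 65 late, with overlap. ZNF44 (-0.72) and ZNF721 (-0.70) had the next lowest values. ZNF207 (0.52), ZNF335, a subunit of a histone methyltransferase complex (0.42), and ZNF451 (0.30) had the highest, with limma adjusted p of 0.36 to 0.65. The sign for ZNF335 turned to -0.15 when its probe sets were averaged, and averaging moved ZNF44 to -0.22, ZNF207 to 0.33 and ZNF451 to 0.030. The other sets of ZNF335 were dim, with mean signals of 19.5 and 6.3, as was that of ZNF44 at 8.9. Those of ZNF207 and ZNF451 had 638.3 and 139.7. Without either 40 min array ZNF44 was at -0.38, ZNF721 at -0.39 and ZNF335 at 0.22.

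**Figure D4:**
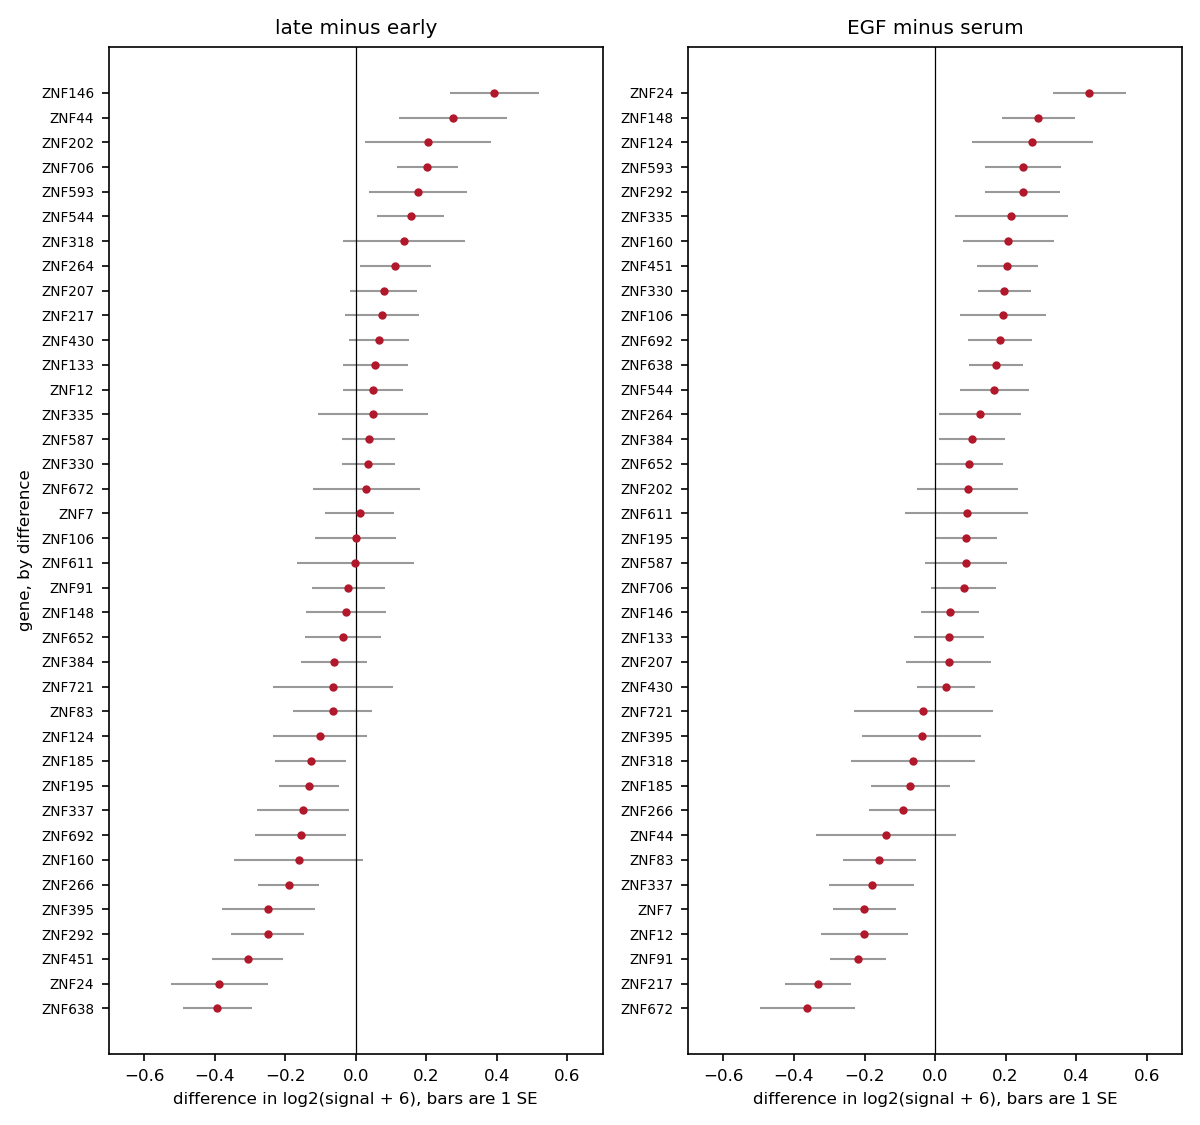
Differences in log2(signal + 6) with 1 SE for the 38 ZNF-named genes, late minus early arrays (left) and EGF minus serum (right), each ordered by its own values. The left values run from -0.39 (ZNF638) to 0.39 (ZNF146), and on the right 25 of 38 genes lie above 0, with ZNF24 highest at 0.44 and ZNF672 lowest at -0.36.

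The third question is how EGF differed from the serum mixture at matched times. The 38 genes tended to be slightly higher with EGF, with a median EGF-minus-serum difference of 0.088 against 0.0076 over all genes and 25 positive against 13 negative. No gene of the 38 was called, beside 0.129% of all genes. At an unadjusted p under 0.05 the count was 9 of 38 (23.7%) against 20.6%. The EGF array was above the serum array in 6 of 6 pairs for 4 genes, ZNF24, ZNF148, ZNF330 and ZNF638 (10.5% against 6.08% of all genes), and below it in 6 of 6 for 1 gene, ZNF217 (2.63% against 6.87%). For ZNF330 the 60 min pair differed by only 0.0011. Its dimmer other probe set (mean signal 50.9) gave an EGF-minus-serum difference of -0.50, against 0.20 for the brightest. The second bright sets of ZNF24, ZNF148 and ZNF638 kept the positive sign.

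ZNF24 had the largest difference. Its signal was 200.7 without stimulation, 195.2, 216.8, 287.7, 215.4, 149.4 and 155.5 with EGF, and 156.4, 182.9, 152.3, 156.0, 125.3 and 99.5 with serum. With EGF the 60 min array was the highest of all 13, and with serum every array lay under the unstimulated one. EGF exceeded serum by 0.44 (SE 0.10, 1.35-fold, limma adjusted p = 0.090). A second bright probe set of the gene gave 0.23, in the same direction, and averaging its sets gave 0.25. ZNF148, which binds GC-rich promoter elements, had 258.2, 367.2, 354.8, 334.3, 298.7 and 355.5 with EGF and 259.8, 300.2, 248.4, 212.9, 290.7 and 279.0 with serum, beside 326.8 unstimulated. Its 20 min pair was nearly equal, with EGF the lower as deposited and the higher after normalization (0.019). After normalization the 240 min pair was closer still, at 0.0017. The pairs at 40, 60, 120 and 480 min were further apart, at 0.30 to 0.62. The difference was 0.29 (SE 0.10, limma adjusted p = 0.18), and the second bright set gave 0.34.

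ZNF217, a transcriptional corepressor-binding protein and an oncogene amplified in breast cancers, ran the other way. It had 195.8 without stimulation, 161.0, 142.6, 197.6, 161.5, 205.1 and 195.9 with EGF, and 194.6, 214.3, 255.5, 235.1, 225.0 and 199.8 with serum. The lowest EGF array was that at 40 min, the highest serum array that at 60 min, and the pair at 480 min differed least. The difference was -0.33 (SE 0.092, 1.26-fold lower with EGF, limma adjusted p = 0.12). ZNF672 had -0.36 (SE 0.13, adjusted p = 0.19), with its 2 highest signals, 152.5 and 150.4, on the serum arrays at 20 and 480 min and all others between 72.5 and 107.5, and it was -0.24 without either 20 min array. ZNF91 had -0.22 (SE 0.080, adjusted p = 0.19). ZNF124 had 0.28 over all times (SE 0.17, adjusted p = 0.40), and 0.16 without either 40 min array.

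In the first hour 29 of 38 genes were higher with EGF than with serum, and the median was 0.13 against -0.0077 over all genes. No gene of the 38 and 0% of all genes were called, and 7 of 38 (18.4%) against 14.5% had an unadjusted p under 0.05. ZNF124 led with 0.69 (SE 0.13, 1.61-fold, limma adjusted p = 0.16), and all 3 of its early EGF signals exceeded the 3 early serum signals. ZNF24 followed with 0.49 and ZNF292 with 0.42, while ZNF217 (-0.40), ZNF672 (-0.37) and ZNF207 (-0.22) were lower with EGF, with limma adjusted p of 0.25 to 0.46 for these 5. The value of ZNF672 rested on the 20 min pair and was -0.057 without either array of it. That of ZNF24 was 0.30 without either 60 min array, and that of ZNF207 was -0.15 without either 20 min array. ZNF292 gave -0.054 when its probe sets were averaged, the other of which had a mean signal of 44.5 against 392.3.

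At 120 to 480 min the genes divided evenly, 19 higher and 19 lower with EGF, with a median of 0.013 against 0.0085 over all genes. None of the 38 was called, beside 0.75% of all genes, and 5 of 38 (13.2%) against 18.9% had an unadjusted p under 0.05. ZNF12, a KRAB zinc finger gene, had -0.46 (SE 0.12, limma adjusted p = 0.13). Its late signals were 250.9, 248.5 and 235.5 with EGF and 344.3, 316.8 and 338.9 with serum, with no overlap. ZNF451 had 0.36 (SE 0.095, adjusted p = 0.13), with late signals of 118.6 to 160.4 with EGF and 83.1 to 121.6 with serum, which overlapped. ZNF44 (-0.50), ZNF721 (-0.38), ZNF335 (0.43) and ZNF24 (0.39) had limma adjusted p between 0.23 and 0.41. ZNF335 gave -0.16 when its dim other probe sets were averaged in. ZNF44 was at -0.31 without either 120 min array, and ZNF335 at 0.25 without either 240 min array and 0.72 without either 480 min array. Averaging probe sets gave 0.21 for ZNF451 and 0.25 for ZNF24.

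**Figure D5:**
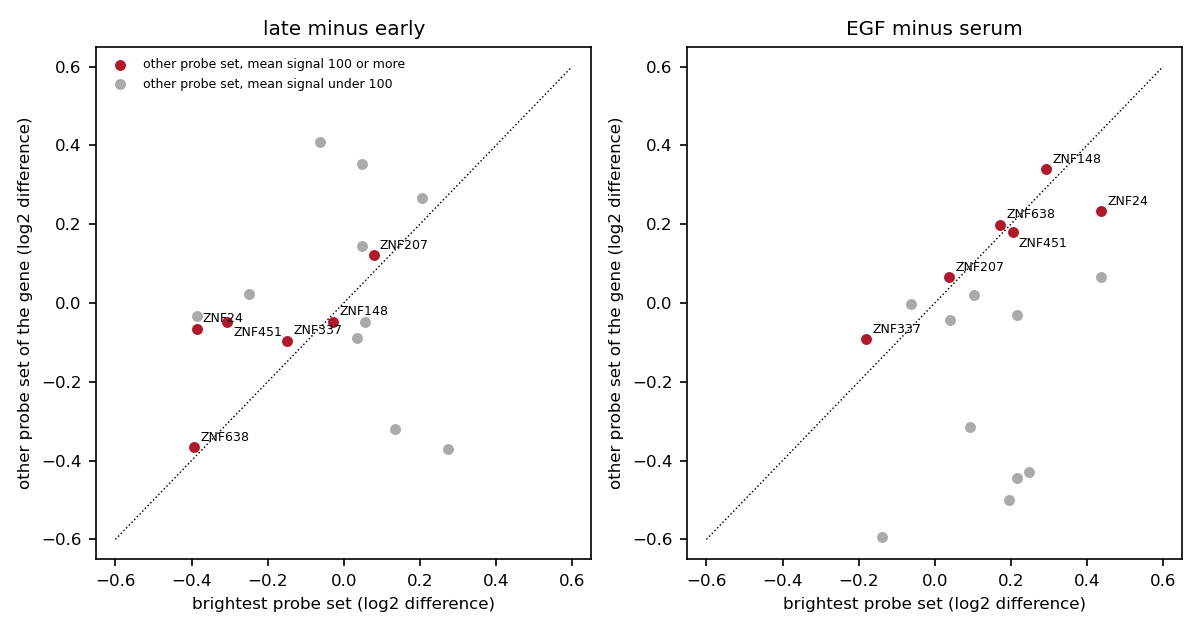
Log2 difference of a gene's other probe sets (vertical axis) against that of its brightest probe set (horizontal axis), for late minus early (left) and EGF minus serum (right). Red points, named, have a mean signal of 100 or more and grey points less, and the dotted line marks equal values. The 6 named sets have the same sign as the brightest set in both panels.

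A second probe set with a mean signal of 100 or more existed for 6 genes, and it had the sign of the first in both main comparisons for all 6. For ZNF638, ZNF148, ZNF24 and ZNF207 the sets correlated over the 13 arrays with r of 0.90, 0.82, 0.62 and 0.61, and for ZNF337 and ZNF451 with 0.32 and 0.29. These describe 1 gene each, over arrays that share a time order.

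Signals of the _x_at genes varied together more than those of the others. Over the 13 arrays the median Pearson r between pairs was 0.54 within the 7 _x_at genes and 0.12 within the other 31. Over the 12 stimulated arrays the values were 0.45 and 0.064. The closest pairs over those 12 arrays were ZNF638 with ZNF451 (r = 0.88), ZNF430 with ZNF611 (0.84) and ZNF587 with ZNF124 (0.84). Next came ZNF638 with ZNF292 (0.79), ZNF430 with ZNF264 (0.77), ZNF195 with ZNF124 (0.76) and ZNF160 with ZNF611 (0.75). Of these, only ZNF430 with ZNF611 and ZNF160 with ZNF611 join _x_at genes to each other. These are descriptions over 1 set of arrays, and probes shared between related copies can enter them.

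The genes known mainly for work other than transcription included the brightest of the 38. ZNF207 had 1030.5 without stimulation and between 868.5 (20 min of EGF) and 1447 (240 min of EGF) with it. ZNF706 had 744.0 and between 703.7 and 1033. ZNF185 had 371.4 against 268.4 to 405.0, ZNF330 had 197.3 against 144.9 to 208.5, ZNF106 had 164.3 against 105.8 to 176.2, and ZNF593 had 112.9 against 84.5 to 175.7. For each of these 6 the stimulated signals lay on both sides of the unstimulated one. The 7 genes of this kind, with ZNF638, had a median late-minus-early difference of 0.036 and the other 31 one of -0.021. For the mean of the stimulated arrays against the single unstimulated array, the 7 had a median of -0.11, with 3 positive and 4 negative. The other 31 had -0.38, with 5 positive and 26 negative. Those 31 include ZNF44 and ZNF124, which passed the signal minimum only through the unstimulated array.

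Of the remaining 12 genes, ZNF264 and ZNF133 lay below the unstimulated array on all 12 others as deposited but not after normalization, and the other 10 had signals on both sides of it. ZNF264 had 173.1 against 92.7 to 170.9. ZNF266 had 257.6 against 174.4 to 259.4, ZNF544 had 230.0 against 147.1 to 255.5, and ZNF195 had 191.7 against 144.4 to 212.1. ZNF384, which is fused in some leukaemias, had 196.7 against 150.7 to 209.7. ZNF337, ZNF335 and ZNF133 had 142.2, 126.7 and 121.4 against 89.5 to 178.7, 70.9 to 136.5 and 89.1 to 112.2. ZNF318 and ZNF202 had 129.6 and 116.0 against 92.2 to 214.3 and 80.5 to 163.6. ZNF7 had 115.0 and was above it on most arrays, from 105.4 to 165.2, and ZNF430 had 263.8 against 216.2 to 282.8.

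The corepressors with which KRAB proteins work were measured on the same arrays. Of 22 listed genes 18 were tested, and in the late-minus-early comparison 0 were higher and 1 was lower (5.56%, beside the 3.47% of all genes called in either direction). It was ATF7IP, a partner of SETDB1 (-0.46, SE 0.11, limma adjusted p = 0.048). That call was not made with each time as its own level (adjusted p = 0.076). SETDB1 had -0.27 (SE 0.080, adjusted p = 0.076), TRIM28 had 0.15 (SE 0.094, adjusted p = 0.37), and CBX5, a heterochromatin protein, had -0.050 (SE 0.13, adjusted p = 0.85). Between EGF and serum, and at each time against the unstimulated array, 0 of 18 were called. On all 12 stimulated arrays 3 of 18 lay below the unstimulated one, or 16.7% against 7.57% of all tested genes, and 1 lay above, or 5.56% against 7.55%. The median difference from it was -0.18, against -0.19 in the ZNF-named genes and -7.6e-05 over all tested genes. Of the 104 tested ZNF-named genes under the signal minimum, 2 were called late minus early, beside 3.47% of all genes, and 1 in serum, beside 1.33%. ZNF365 was higher late (0.88, SE 0.20, limma adjusted p = 0.038), ZNF862 lower late (-1.07, SE 0.24, adjusted p = 0.040) and ZNF282 lower late in serum (-0.71, SE 0.13, adjusted p = 0.035). With each time as its own level 0 of the 104 were called late minus early. In related name families, ZBTB16, a known glucocorticoid target, was the 1 of 15 tested ZBTB genes called in the planned comparisons. It was lower with EGF than with serum at 120 to 480 min (-2.87, SE 0.15, limma adjusted p = 0.0024), where 0.75% of all genes were called. Averaged over both agents it was lower late than early (-1.25, SE 0.18, adjusted p = 0.011), where 3.47% were. That difference lay in EGF (-2.65, SE 0.25, adjusted p = 0.0032), where 0.246% of all genes were called. In serum 0 of 15 ZBTB genes were called late minus early. The interaction of ZBTB16 was -2.78 (SE 0.21, adjusted p = 0.029), where 0.0259% were called. In the planned comparisons 0 of 10 ZSCAN and ZKSCAN genes and 0 of 3 ZFP genes were called. With each time as its own level, ZFP36, an mRNA decay factor, was lower late (-0.81, SE 0.14, adjusted p = 0.037) and ZBTB16 was not called.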

How the data were processed

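The deposited table holds signal intensities made by the authors with MAS5, per the submitters' processing notes, for 22277 probe sets on 13 arrays of MCF10A RNA. The 2% trimmed mean of each deposited column was 150.04 or 150.05, so arrays had been scaled to a common level. Genes were named through GEO's platform annotation, with 19064 probe sets having 1 symbol, 1043 several and 2108 none, beside 62 control probe sets, and the 38 members matched RefSeq by gene ID. Intensities were converted to log2(signal + 6) and quantile normalized, 1 probe set per gene was kept (the brightest mean), and genes under the 40th percentile of mean log2 (4.68) were dropped, which left 7731. Differences were tested with limma 3.58.1 (R 4.3.3), two-sided, with Benjamini-Hochberg adjustment over all 7731 genes and a threshold of 0.05. A fit with 5 groups (unstimulated, early and late of each agent) gave late minus early, a fit with time as a block gave EGF minus serum, and a fit with a level per time gave the response, in which the lone unstimulated array is assumed to vary like the others. The fits were tested on simulated data. Python 3.11.15 searched the promoters.

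The members and lists were chosen with earlier results of these data known. Named genes are all members called, otherwise the 3 largest differences each way per comparison (60 and 480 min for the response), with other members given by range and the 14 below on every array chosen after their values were seen. Alternatives changed the offset, normalization, filter, probe set rule, variance model and the arrays used. Protein sequences and a genome were not used here. Precision is limited by the number of arrays, since no condition had a second one.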

Additional observations from a re-analysis of the deposited data

How the results depend on the processing

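No paired analysis was possible because each condition is 1 array and the labels carry no replicate numbers; time was already the block between EGF and serum. Against 0 ZNF-named genes called late minus early, the count was 1 (ZNF638) with an offset of 24, with a 60th percentile filter or with time as a factor, 2 (ZNF146 and ZNF638) with a variance trend and robust variances, and 0 to 1 when 1 array was left out (1 without the 60 min EGF or the 120 min serum array). With the variance trend it was also 1 in serum (ZNF638), 1 for EGF minus serum (ZNF24), 1 in the first hour (ZNF124), 2 at the late times (ZNF12 and ZNF207) and 2 for the response (ZNF146 and ZNF160). That setting called many genes, 8.47% of all late minus early, 5.41% in serum and 5.51% for EGF minus serum. It called 2.32% of all genes in the first hour, 7.2% at the late times and 0.0647% to 0.595% at the times of the response. The 60th percentile filter gave 1 for EGF minus serum (ZNF24), and shares of all genes are not given for that filter or the offset of 24. Every other count stayed at 0, including within EGF and the interaction. Of 1074 values for named genes, 1056 kept their direction and side of the threshold, 13 passed it and 5 reversed. With probe sets averaged these were ZNF44 late minus early (-0.048), ZNF292 in the first hour (-0.054), ZNF335 at the late times (-0.16) and ZNF335 in the interaction (-0.15). The sets averaged in had mean signals of 8.9 for ZNF44, 44.5 for ZNF292, and 19.5 and 6.3 for ZNF335. ZNF318 at 480 min ranged from -0.0047 to 0.83 with 1 array left out, the extremes being without the serum and the EGF array. The cause of these changes was not tested.

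Counts over all genes moved by more than 1.5 times. Late minus early they were 268, from 67 to 655 over the settings and 56 to 437 with 1 array left out. In EGF they were 19 (8 to 69, and 1 to 29), in serum 103 (10 to 418, and 9 to 208), for EGF minus serum 10 (1 to 426, and 1 to 29), at the late times 58 (1 to 557, and 0 to 58), and in the first hour 0 (0 to 179, and 0 to 1). The interaction gave 2 (0 to 70, and 0 to 2), and the response at the 6 times gave 0 to 6, and up to 46 with the variance trend. The count of 14 genes below the unstimulated array on all 12 others was 14 with no offset, an offset of 24 or averaged probe sets, and 16 without quantile normalization, where 9.84% of all genes lay below and 5.79% above. It cannot be tried without the single unstimulated array.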
